A study of Homo sapiens with 6 samples.

Results

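The nuclear-encoded subunits of the mitochondrial respiratory chain and ATP synthase were examined in cells of MDA-MB-231, a long-established line from a human triple-negative breast cancer. The members were protein-coding genes picked by symbol alone from the subunit families of complexes I to V. Of 61552 gene identifiers in the count tables, 131 carried a matching symbol, 53 of these were pseudogenes and were left out, and 78 genes remained. They comprised 37 genes of complex I, 4 of complex II, 8 of complex III, 11 of complex IV and 18 of complex V, with NDUFA4 counted in complex IV, where structures place it. Cells were treated for 24 h with 10 μM VNLG-152R, which the study describes as a compound that brings about degradation of the kinases MNK1/2, or with the DMSO vehicle. Each group had 3 libraries of polyA RNA, sequenced as strand-specific paired-end reads. The labels do not say whether the triplicates were separate experiments, and the study's general remark on independent experiments does not name the sequencing, so p-values measure the spread between these samples only, which may be technical.

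Complexes I to IV of the inner mitochondrial membrane pass electrons from NADH and succinate to oxygen, and complexes I, III and IV pump protons while doing so. Complex V, the ATP synthase, lets the protons flow back and uses that flow to make ATP. The subunits come from both genomes: a few hydrophobic core subunits of complexes I, III, IV and V are encoded in mitochondrial DNA, whereas all of complex II and the remaining subunits are encoded in the nucleus and imported. In promoters of the nuclear genes, binding letters for NRF1, ETS factors such as GABP, YY1 and estrogen-related receptors are well known.

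The VNLG-152R libraries held 69923839 to 82151816 gene counts each and the vehicle control libraries 60122936 to 68583224. Read pairs that fell in no annotated gene made up 3.36% to 5.05% in VNLG-152R libraries, with the highest share in replicate 2, and 2.63% to 3.17% in vehicle control libraries. The line's own markers were high, with vimentin (VIM) at 3867 ± 463 CPM (counts scaled to a fixed library total after normalisation) in VNLG-152R cells and 5079 ± 145 CPM in vehicle controls (SD, n = 3 each). The oestrogen receptor gene ESR1 had 0, 0 and 8 counts in VNLG-152R libraries and 0, 0 and 1 in vehicle controls, and the leukocyte gene PTPRC had 1 or 2 counts in every library. Transcripts of ERBB2 were present, at 98.5 CPM in VNLG-152R cells and 90.3 CPM in vehicle controls. The epithelial gene EPCAM and the endothelial gene PECAM1 were also counted, at 11.6 and 25.1 CPM in VNLG-152R cells and 13.4 and 23.1 CPM in vehicle controls, and neither passed the test.

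Across the respiratory chain the subunit mRNAs had slightly lower estimates in VNLG-152R cells, and the shift was shared by all 5 complexes. Of 78 members, 73 passed the expression filter and were tested, and 70 of these had a log2 fold change below 0. The median over the tested members was -0.23, beside -0.00 over all 17084 tested genes. ATP5MC1 and ATP5F1E, both of complex V, fell past the threshold of an adjusted p of 0.05 in edgeR's quasi-likelihood test, so 2 of 73 members were called lower, beside 1.43% of all tested genes. DESeq2, run without the expression filter, called 9 of 73 members with an adjusted p lower, beside 3.84% of all genes with one, and limma-voom called 2 of 73 lower, beside 1.35%. With the expression filter, an alternative added after the data were seen, DESeq2 called 8 of 73 members lower, beside 3.67%, and without that filter edgeR called 10 of 78 lower, beside 1.50%. No member was called higher (0 of 73, beside 3.76% of all tested genes), in edgeR or in any of the other settings tried, DESeq2 (6.49% of genes called higher) and limma-voom (3.49%) included. At an unadjusted p under 0.05 in edgeR, 30 members were lower, beside 9.76% of all tested genes, and 1 was higher, beside 12.8%. All 3 VNLG-152R libraries lay below all 3 vehicle control libraries for 32 members, beside 13.4% of all tested genes, and above them for 1 member, beside 15.1%. In bulk RNA, fewer cells of a type and less RNA per cell cannot be told apart.

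**Figure D1:**
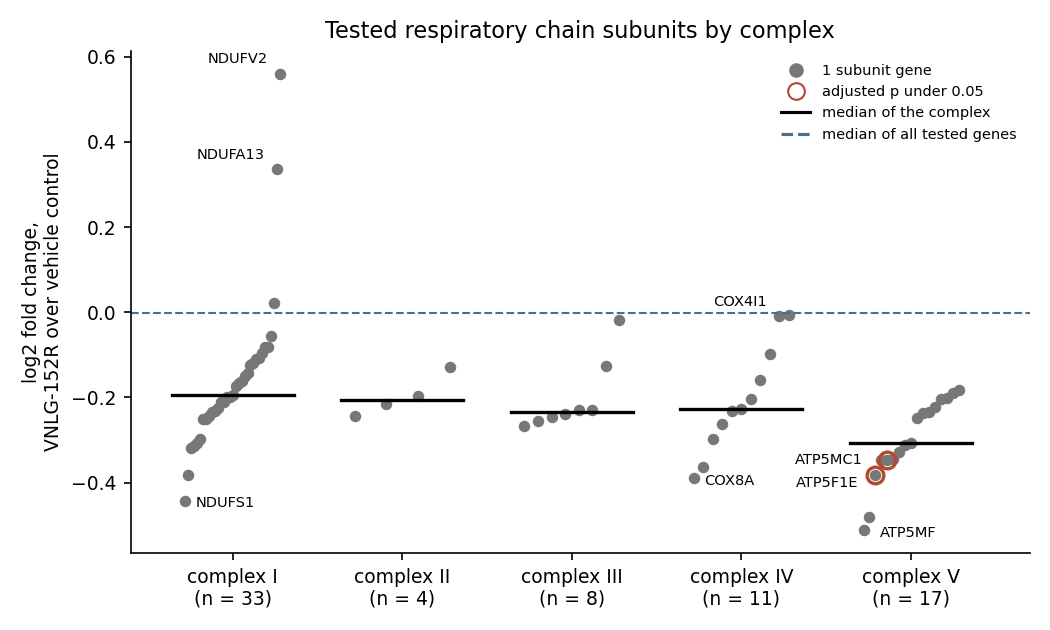
Each of the 73 tested subunit genes (grey points) by its log2 fold change in VNLG-152R over vehicle control libraries, arranged by complex, with the median of each complex as a black bar and the median of all tested genes as a dashed line. Open red circles mark ATP5F1E and ATP5MC1, which passed an adjusted p of 0.05. Nearly all points lie below 0, and the median runs between -0.20 in complex I and -0.31 in complex V.

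Complex V carried the lowest median and both calls. The median log2 fold change was -0.20 in complex I (33 tested), -0.21 in complex II (4 tested), -0.23 in complex III (8 tested), -0.23 in complex IV (11 tested) and -0.31 in complex V (17 tested). All tested genes of complexes II, III, IV and V had estimates below 0, as did 30 of 33 in complex I. An unadjusted p under 0.05 with a lower estimate was reached by 8 genes of complex I, 1 of complex II, 5 of complex III, 3 of complex IV and 13 of complex V. Over all tested genes that share was 9.76%. Complex V had the lowest median in each of the 17 other fits, where it ranged between -0.35 and -0.21, but the other complexes came near it in places. Their medians ranged between -0.26 and -0.12 in complex I, -0.26 and -0.10 in complex II, -0.29 and -0.17 in complex III, and -0.33 and -0.14 in complex IV. Without vehicle control replicate 1 the medians of complexes I and II were -0.12 and -0.10, without VNLG-152R replicate 1 those of complexes II and IV were -0.11 and -0.14, and without VNLG-152R replicate 2 that of complex IV was -0.33, beside -0.35 in complex V. The distance between complexes was nevertheless not even across libraries. The median log2 deviation of complex V minus that of complex I was -0.26, -0.11 and -0.03 in VNLG-152R replicates 1, 2 and 3, and 0.06, 0.01 and -0.04 in the vehicle controls, so the groups overlapped through VNLG-152R replicate 3. No test of the difference between complexes was made.

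Summed over their subunits, 4 of the 5 complexes had non-overlapping groups. All members together held 5407, 6049 and 5633 CPM in VNLG-152R libraries, against 6793, 6311 and 6522 CPM in vehicle control libraries, a mean of 87.1% of the control level. Complex V held 2444, 2576 and 2583 CPM with VNLG-152R, against 3036, 2915 and 2960.0 CPM in vehicle controls, or 85.3% of the control mean. Complex I averaged 1368 ± 65.7 CPM in VNLG-152R cells and 1538 ± 75.2 CPM in vehicle controls (SD, n = 3 each). Complex II, which has no mitochondrially encoded subunit, averaged 199.7 ± 22.4 CPM in VNLG-152R cells and 231 ± 17.9 CPM in vehicle controls. Complex III averaged 724 ± 61.0 CPM with VNLG-152R and 838 ± 41.1 CPM in vehicle controls. The margins in these 3 complexes were narrow. The highest VNLG-152R and the lowest vehicle control library held 1444 and 1462 CPM in complex I, 213 and 219 CPM in complex II, and 793 and 797 CPM in complex III. In complex IV the groups overlapped, because VNLG-152R replicate 2 held 1023 CPM, above all of the vehicle controls, which averaged 965 ± 48.1 CPM.

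**Figure D2:**
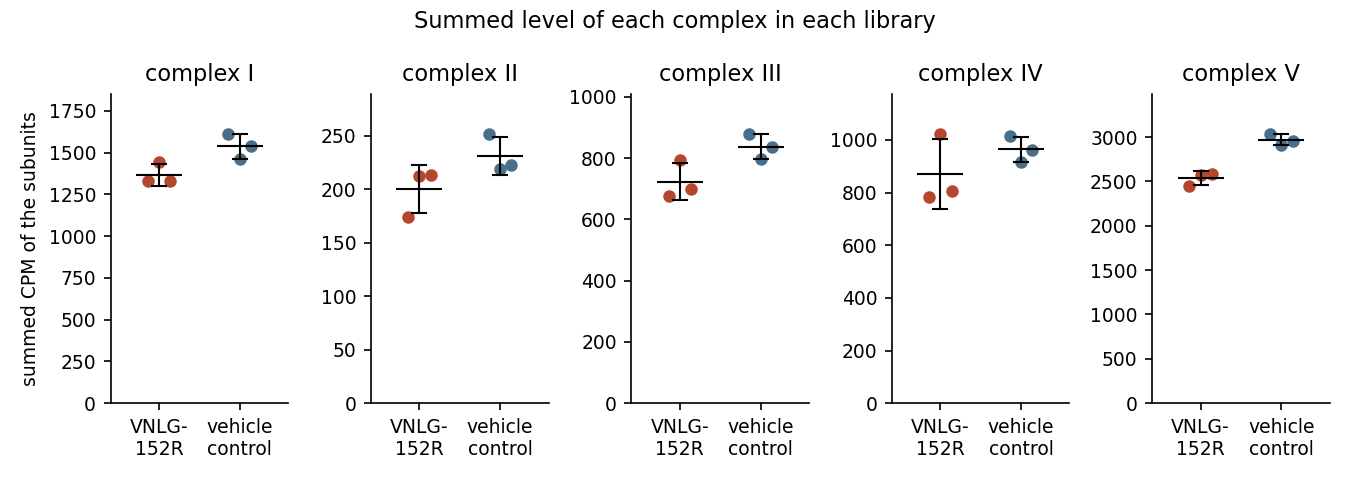
Summed CPM of the subunit genes of each complex in each library, with VNLG-152R in red on the left and vehicle control in blue on the right of each panel, and black bars for the mean ± SD of 3 libraries. The groups are apart for complexes I, II, III and V, narrowly so for I, II and III, and overlap for complex IV.

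ATP5MC1 encodes the c subunit that forms the proton-driven ring of the ATP synthase. Its level was 47.8, 50.6 and 51.0 CPM in VNLG-152R libraries, against 63.2, 62.2 and 64.7 CPM in vehicle control libraries. The groups were far apart relative to their spread, and the log2 fold change was -0.35 (SE 0.08, edgeR adjusted p = 0.027). ATP5F1E, the epsilon subunit of the central stalk, had 70.7, 84.2 and 72.4 CPM with VNLG-152R, against 108.9, 93.5 and 93.6 CPM in vehicle controls. VNLG-152R replicate 2 came nearest to the controls and vehicle control replicate 1 was the highest library, and the log2 fold change was -0.38 (SE 0.10, edgeR adjusted p = 0.042). Both calls sat close to the threshold. Without vehicle control replicate 1, 2 or 3, or without VNLG-152R replicate 3, neither gene passed, without VNLG-152R replicate 2 only ATP5F1E did and without VNLG-152R replicate 1 only ATP5MC1 did, and the adjusted p over these 6 fits ranged between 0.043 and 0.14 for ATP5MC1 and between 0.026 and 0.14 for ATP5F1E. Of the exon bases of ATP5F1E, 23.2% lie opposite another gene in GENCODE release 29, which matters only if the counting ignored strand, and the strand setting is not given in the sources used here.

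The promoters of the 2 genes that passed are printed because they are the members the test singled out. Each is the stretch of 250 bases before the start of the gene in RefSeq (GRCh38.p14), and capitals mark matches on either strand to CCAAT, the core letters read by the factor NF-Y, or to GCGCNTGCG (NRF1), CCGGAAG (ETS factors), ATGGCGG (YY1) or CAAGGTCA (estrogen-related receptors). The ATP5MC1 stretch is chr17:48892537-48892786 on the plus strand and that of ATP5F1E is chr20:59032336-59032585 on the minus strand.
ATP5MC1: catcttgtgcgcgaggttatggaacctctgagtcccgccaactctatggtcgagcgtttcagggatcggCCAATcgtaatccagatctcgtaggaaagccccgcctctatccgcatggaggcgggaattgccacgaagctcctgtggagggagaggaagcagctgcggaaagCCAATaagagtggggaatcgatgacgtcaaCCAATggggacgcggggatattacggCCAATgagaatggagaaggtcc
ATP5F1E: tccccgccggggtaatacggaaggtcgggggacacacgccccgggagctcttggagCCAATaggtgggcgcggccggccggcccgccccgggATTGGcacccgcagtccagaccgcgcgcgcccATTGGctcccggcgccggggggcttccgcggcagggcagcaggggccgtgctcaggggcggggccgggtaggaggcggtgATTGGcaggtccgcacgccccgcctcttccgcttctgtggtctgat
All capitals here are CCAAT or its reverse complement. Each of the 2 stretches held 4, at 181, 78, 48 and 22 bases before the start in ATP5MC1 and at 194, 158, 126 and 46 bases before it in ATP5F1E, and neither held a match to the other 4 sets of letters. CCAAT was added to the search after these 2 promoters had been seen. At least 3 matches within the 300 bases around the start occurred in 4 of 64 members with a RefSeq promoter (6.25%: ATP5MC1, ATP5F1E, NDUFS8 and NDUFA5) and in 3.42% of all 27305 promoters. The 6.25% includes the 2 promoters that prompted the search, so its distance from 3.42% is not a test. NDUFS8 and NDUFA5 did not pass the test of expression, with log2 fold changes of -0.12 and -0.12. A match is a description of the letters, not a shown binding site.

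For contrast, the promoters of NDUFB4 of complex I and ATP5PF of complex V are printed with the same marking, as examples that hold NRF1, ETS or YY1 matches. The choice did not cover every member, so other members may hold as many matches or more. The NDUFB4 stretch is chr3:120596086-120596335 on the plus strand, and the ATP5PF stretch is chr21:25735055-25735304 on the minus strand.
NDUFB4: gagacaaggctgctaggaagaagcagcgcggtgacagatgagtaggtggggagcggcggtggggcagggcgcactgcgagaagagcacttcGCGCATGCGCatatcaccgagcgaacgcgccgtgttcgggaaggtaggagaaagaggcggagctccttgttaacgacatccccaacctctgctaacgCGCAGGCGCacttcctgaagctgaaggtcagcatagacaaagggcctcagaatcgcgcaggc
ATP5PF: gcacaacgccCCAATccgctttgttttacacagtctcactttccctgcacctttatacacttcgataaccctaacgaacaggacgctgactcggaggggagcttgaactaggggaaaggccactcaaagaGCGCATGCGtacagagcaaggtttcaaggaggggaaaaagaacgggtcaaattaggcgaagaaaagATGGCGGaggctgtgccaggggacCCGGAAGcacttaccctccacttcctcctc
In NDUFB4 the capitals are 3 NRF1 matches, a pair of which overlap on opposite strands. In ATP5PF the capitals are, from the left, CCAAT, NRF1, YY1 and ETS letters. NDUFB4, an accessory subunit of complex I, had 74.6, 74.3 and 73.2 CPM in VNLG-152R libraries, against 73.8, 76.8 and 84.5 CPM in vehicle controls, and the groups overlapped (log2 fold change -0.08, edgeR adjusted p = 0.59). ATP5PF, coupling factor 6 of the peripheral stalk, had 30.5, 38.7 and 35.6 CPM with VNLG-152R, against 40.2, 39.9 and 40.5 CPM in vehicle controls, with no overlap but no call (log2 fold change -0.20, edgeR adjusted p = 0.23). Over all 64 member promoters of 300 bases, NRF1 letters occurred in 34.4%, beside 8.05% of all promoters of the same length, ETS letters in 31.2% beside 10.7%, and YY1 letters in 29.7% beside 5.72%. The letters of estrogen-related receptors occurred in 6.25% of member promoters beside 1.33%, GGGCGG of the SP factors in 60.9% beside 44.6%, and CCAAT in 31.2% beside 35.7%.

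The c subunit is encoded by 3 genes whose mature proteins are the same. In all 3, every VNLG-152R library lay below every vehicle control library. The same held for 13 of 17 tested genes of complex V, 32 of 73 tested members and 13.4% of all tested genes. ATP5MC2 had 108.4, 94.6 and 100.0 CPM in VNLG-152R libraries, against 114, 118 and 125 CPM in vehicle controls (log2 fold change -0.24, edgeR adjusted p = 0.12). ATP5MC3 had 164, 193 and 188 CPM with VNLG-152R, against 221, 212 and 215 CPM in vehicle controls (log2 fold change -0.25, edgeR adjusted p = 0.11). Only ATP5MC1 of the 3 passed, and no test of a difference among them was made. Because the proteins match, the coding bases decide whether a read can be placed on 1 of the 3 genes. The last 77 residues were identical in each pair, yet the 231 coding bases behind them were 88.3% identical between ATP5MC1 and ATP5MC2 and 80.1% identical in the other pairs, and the longest run of shared bases was 17. A stretch of 90 coding bases near the end is shown, from GENCODE release 29 transcripts on GRCh38, with the 25 positions that differ in any of the 3 genes in capitals. The genes lie at chr17:48892765-48895871 (plus strand), chr12:53632726-53677408 (minus strand) and chr2:175176258-175184607 (minus strand).
ATP5MC1: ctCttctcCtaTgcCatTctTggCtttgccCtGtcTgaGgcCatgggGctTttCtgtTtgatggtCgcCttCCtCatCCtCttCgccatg
ATP5MC2: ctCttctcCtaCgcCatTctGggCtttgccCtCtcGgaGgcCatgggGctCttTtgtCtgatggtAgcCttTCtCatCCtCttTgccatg
ATP5MC3: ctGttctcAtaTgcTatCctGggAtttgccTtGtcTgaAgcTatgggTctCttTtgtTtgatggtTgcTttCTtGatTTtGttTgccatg
Differences fall throughout the stretch, mostly at the last base of a codon, and reads were 100 bases long. Processed pseudogene copies of these and other members exist, and read pairs that aligned to more than 1 place were left out of the counts by the authors (7.81% to 8.12% of pairs in VNLG-152R libraries and 7.83% to 7.95% in vehicle controls), so members with close copies are less certain.

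Every part of complex V had a median estimate below 0. The catalytic head and central stalk (ATP5F1 genes) had a median log2 fold change of -0.22 over 5 genes, the c ring -0.25 over 3, the peripheral stalk -0.25 over 4 and the other membrane subunits -0.34 over 5. ATP5F1B, the catalytic beta subunit, was the most abundant member per length, at 545 CPM per kilobase of transcript in VNLG-152R cells and 627 in vehicle controls. Its libraries held 1020.1, 977 and 1009 CPM with VNLG-152R, against 1116, 1166 and 1179 CPM in vehicle controls. These groups did not overlap, but the change of -0.20 on the log2 scale (SE 0.08) did not pass (edgeR adjusted p = 0.17). ATP5F1A, the alpha subunit that alternates with beta in the head, had 475, 495 and 505 CPM in VNLG-152R libraries, against 589, 539 and 547 CPM in vehicle controls (log2 fold change -0.18, edgeR adjusted p = 0.21). ATP5ME, the small membrane subunit e, had 15.8, 18.6 and 16.5 CPM with VNLG-152R, against 23.8, 20.2 and 20.7 CPM in vehicle controls. It did not pass (log2 fold change -0.34, edgeR adjusted p = 0.067), although it did in edgeR without the expression filter (adjusted p = 0.032) and in DESeq2 (adjusted p = 0.024), and 61.6% of its exon bases lie opposite another gene. ATP5MF had the lowest estimate of all tested members and did not pass (log2 fold change -0.51, edgeR adjusted p = 0.074). It was called lower by DESeq2 with or without the expression filter and by edgeR without it. Other fits called ATP5PB (DESeq2 without the filter), ATP5MK and ATP5PO (edgeR without the filter) or ATP5F1D (edgeR without VNLG-152R replicate 1) lower. Among the 18 genes of the complex, ATP5MGL had 0 to 4 counts per library and was not tested.

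**Figure D3:**
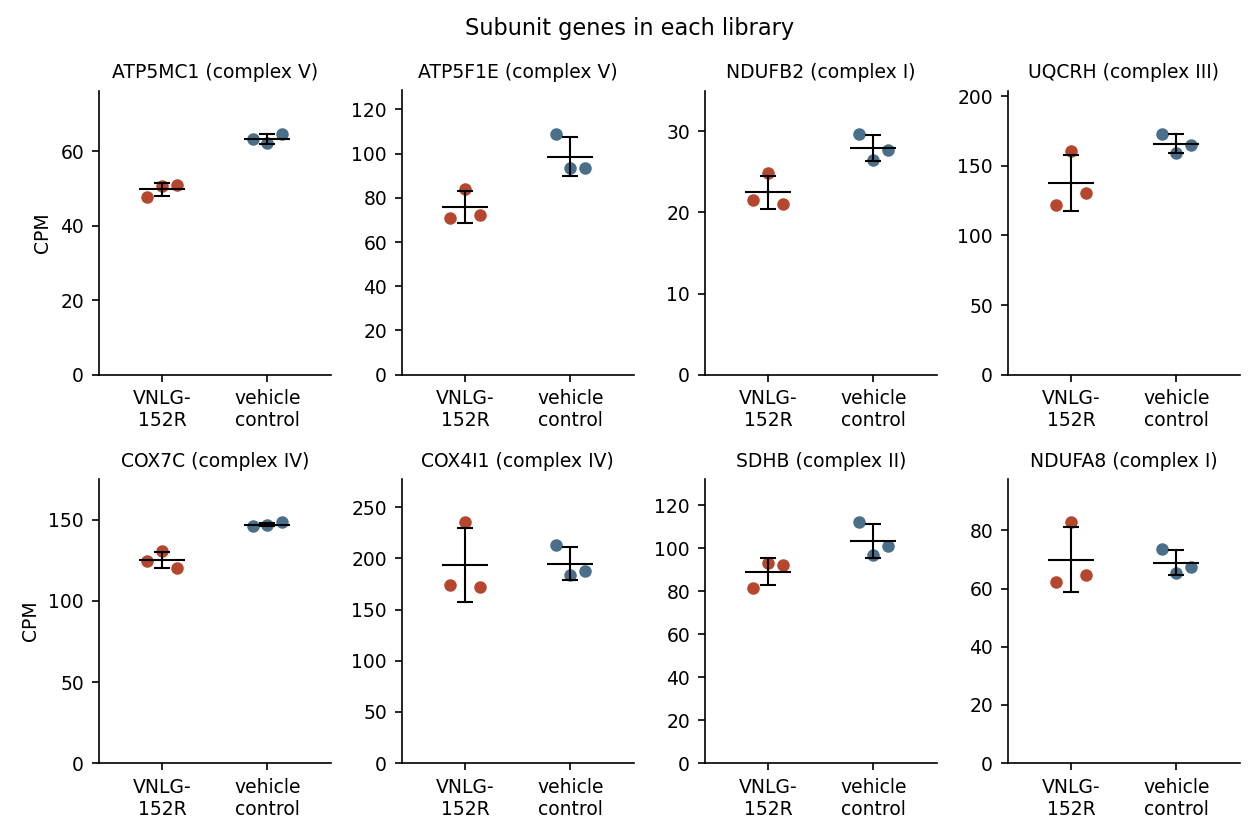
CPM of 8 subunit genes in each library, with VNLG-152R in red on the left and vehicle control in blue on the right, and black bars for the mean ± SD of 3 libraries. Groups are apart for ATP5MC1, ATP5F1E, NDUFB2, COX7C and SDHB and overlap for UQCRH, COX4I1 and NDUFA8.

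In complex I, which takes electrons from NADH, no gene passed in either direction in edgeR, with 8 lower and 1 higher at an unadjusted p under 0.05, or in limma-voom. In other fits, DESeq2 called NDUFB2 and NDUFB9 lower with or without the expression filter, edgeR without the filter called NDUFB9 and NDUFS1, edgeR without VNLG-152R replicate 1 called NDUFS1, and edgeR without VNLG-152R replicate 2 called NDUFB2. The 27 tested accessory subunits had a median log2 fold change of -0.20 and the 6 tested core subunits, which hold the flavin and iron-sulfur clusters and are conserved in bacteria, a median of -0.13. NDUFB2, an accessory subunit of the membrane arm, had 21.6, 24.8 and 21.0 CPM in VNLG-152R libraries, against 29.7, 26.4 and 27.7 CPM in vehicle controls (log2 fold change -0.31, edgeR adjusted p = 0.072, or 0.046 without VNLG-152R replicate 2). NDUFB9, also of the membrane arm, had 35.6, 46.2 and 42.5 CPM with VNLG-152R, against 60.5, 48.6 and 53.0 CPM in vehicle controls (log2 fold change -0.38, edgeR adjusted p = 0.069). In both genes the groups were apart, in NDUFB9 by a narrow margin. NDUFS5, an accessory subunit on the side of the intermembrane space, had 94.9, 113 and 99.1 CPM in VNLG-152R libraries, against 125, 119.7 and 121 CPM in vehicle controls (log2 fold change -0.25, edgeR adjusted p = 0.11).

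NDUFV1, the core subunit that binds NADH and the flavin, had 134, 105 and 115 CPM in VNLG-152R libraries, against 145, 128 and 137 CPM in vehicle controls. The highest VNLG-152R library lay within the control range (log2 fold change -0.21, edgeR adjusted p = 0.23). NDUFS1, the largest core subunit, had only 6.31, 2.84 and 3.29 CPM with VNLG-152R, against 5.24, 5.96 and 5.64 CPM in vehicle controls, and VNLG-152R replicate 1 exceeded all controls (log2 fold change -0.44, edgeR adjusted p = 0.29). Its value hung on single libraries, at -0.87 without VNLG-152R replicate 1 (edgeR adjusted p = 0.0037) and -0.23 without VNLG-152R replicate 2, and with no expression filter it passed (edgeR adjusted p = 0.047). Estimates above 0 were found in 3 genes of the complex. NDUFV2, another core subunit with an iron-sulfur cluster, had 60, 91 and 63 counts in VNLG-152R libraries, against 40, 40 and 41 counts in vehicle controls, and was the 1 member whose groups were apart upward (log2 fold change 0.56, SE 0.23, edgeR adjusted p = 0.17, or 0.36 on the log2 scale without VNLG-152R replicate 2). NDUFA13 had 2.40, 2.90 and 1.63 CPM with VNLG-152R, against 1.28, 2.06 and 2.13 CPM in vehicle controls, with overlap (log2 fold change 0.34, edgeR adjusted p = 0.43). That estimate was 0.14 without VNLG-152R replicate 2 or without vehicle control replicate 1, and 0.54 without VNLG-152R replicate 3. NDUFA8 had 62.2, 82.7 and 64.6 CPM in VNLG-152R libraries, against 73.6, 65.4 and 67.5 CPM in vehicle controls, so that only VNLG-152R replicate 2 was above the controls (log2 fold change 0.02, edgeR adjusted p = 0.93).

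Low counts set several of these genes apart. NDUFA3, NDUFA6, NDUFA7 and NDUFS3 had at most 17 counts in any library and were not tested, and 12 tested members averaged under 10 CPM. Of those 12 members, NDUFV2, NDUFA13 and NDUFB8 among them, 9 share over 5% of their exon bases with another gene on the same strand in GENCODE release 29, as do 8 of the 61 members at 10 CPM or more. The share was 28.4% in NDUFV2, 21.0% in NDUFA13 and 34.5% in COX8A. Read pairs ambiguous between genes, 4.81% to 4.96% in VNLG-152R libraries and 4.96% to 5.16% in vehicle controls, were left out of the counts by the authors, so a low count of such a gene need not be a low RNA level. The part of the overlap in these counts was not tested. Over the 61 members at 10 CPM or more, a subset chosen after the values were seen, the median log2 fold change was again -0.23, with 60 estimates below 0.

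Complex II, which links succinate oxidation in the citric acid cycle to the chain, gave no call in edgeR (1 gene at an unadjusted p under 0.05), DESeq2 or limma-voom. SDHB, its iron-sulfur subunit, had 81.8, 93.3 and 92.2 CPM in VNLG-152R libraries, against 112, 96.8 and 101 CPM in vehicle controls, apart but by a small margin (log2 fold change -0.21, edgeR adjusted p = 0.18). SDHC, a membrane anchor, had 67.1, 82.3 and 86.8 CPM with VNLG-152R, against 90.6, 89.8 and 90.6 CPM in vehicle controls (log2 fold change -0.20, edgeR adjusted p = 0.26, with a log2 fold change of -0.09 without VNLG-152R replicate 1). SDHD, the other anchor, had 20.0, 31.3 and 29.4 CPM in VNLG-152R libraries, against 42.9, 26.9 and 25.9 CPM in vehicle controls. Its estimate of -0.24 rested on vehicle control replicate 1 and was 0.03 without that library. SDHA, the flavoprotein that oxidises succinate, was counted at 4.90 ± 0.48 CPM in VNLG-152R cells and 5.36 ± 0.51 CPM in vehicle controls (SD, n = 3 each; log2 fold change -0.13, edgeR adjusted p = 0.58). None of its exon bases are shared with another gene on the same strand in GENCODE release 29. Its low count beside SDHB and SDHC was not explained here and need not be its RNA level.

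Complex III, which passes electrons from ubiquinol to cytochrome c, gave no call over all 6 libraries in edgeR (5 genes at an unadjusted p under 0.05), DESeq2 or limma-voom, and 6 of its 8 estimates lay between -0.27 and -0.23. UQCR10, a small membrane subunit, had 32.2, 36.4 and 32.5 CPM in VNLG-152R libraries, against 38.0, 39.7 and 42.3 CPM in vehicle controls (log2 fold change -0.25, edgeR adjusted p = 0.12). UQCRFS1, the Rieske iron-sulfur protein, had 97.7, 105 and 106 CPM with VNLG-152R, against 132, 113 and 118 CPM in vehicle controls (log2 fold change -0.23, edgeR adjusted p = 0.14). Groups were apart in both. UQCRH, the hinge protein that helps cytochrome c dock, had 122, 161 and 130.2 CPM in VNLG-152R libraries, against 173, 159 and 165 CPM in vehicle controls, where VNLG-152R replicate 2 reached the control range (log2 fold change -0.27, edgeR adjusted p = 0.15). Without that library UQCRH passed, at a log2 fold change of -0.39 (edgeR adjusted p = 0.032). The nearly identical intronless copy UQCRHL had 11.99, 13.6 and 12.8 CPM with VNLG-152R, against 16.1, 14.6 and 14.5 CPM in vehicle controls, and reads may be split between the pair. UQCRC1, a core protein on the matrix side, had 209, 209.9 and 191 CPM in VNLG-152R libraries, against 220.1, 214 and 231 CPM in vehicle controls (log2 fold change -0.13, edgeR adjusted p = 0.38).

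In complex IV, the oxidase that reduces oxygen, single genes ran between a log2 fold change of -0.39 and one of -0.01, and none passed in edgeR (3 at an unadjusted p under 0.05) or limma-voom. Other fits called COX7C and COX8A lower (DESeq2, with or without the expression filter), COX7B and COX8A (edgeR without the filter) or COX7B (edgeR without VNLG-152R replicate 2). COX8A, a small membrane subunit, had 8.60, 8.42 and 8.10 CPM in VNLG-152R libraries, against 12.5, 9.95 and 10.5 CPM in vehicle controls (log2 fold change -0.39, edgeR adjusted p = 0.059). COX7C had 125, 131 and 120.2 CPM with VNLG-152R, against 146, 147 and 148 CPM in vehicle controls (log2 fold change -0.23, edgeR adjusted p = 0.10). Groups were apart in both. COX7B, another small membrane subunit, had 21.6, 46.6 and 27.8 CPM in VNLG-152R libraries, against 45.6, 35.7 and 42.1 CPM in vehicle controls. Its replicate 2 with VNLG-152R was the highest of all 6 libraries, and the log2 fold change was -0.36 (edgeR adjusted p = 0.34), or -0.74 without that library (edgeR adjusted p = 0.0097) and -0.14 without VNLG-152R replicate 1. COX6C had 66.0, 88.3 and 74.5 CPM in VNLG-152R libraries, against 111, 84.0 and 86.5 CPM in vehicle controls, and overlapped through VNLG-152R replicate 2 (log2 fold change -0.30, edgeR adjusted p = 0.18, with a log2 fold change of -0.16 without vehicle control replicate 1). COX4I1, the largest nuclear-encoded subunit of the complex, had 174, 235 and 172 CPM with VNLG-152R, against 213, 183 and 188 CPM in vehicle controls, and its log2 fold change was -0.01 (edgeR adjusted p = 0.97). COX5A, which is needed for assembly of the oxidase, had 88.1, 85.5 and 89.8 CPM in VNLG-152R libraries, against 86.8, 97.2 and 97.9 CPM in vehicle controls (log2 fold change -0.10, edgeR adjusted p = 0.51).

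The libraries of each group did not sit together on these genes. Relative to the vehicle control mean, the median log2 level of the tested members was -0.36, -0.12 and -0.24 in VNLG-152R replicates 1, 2 and 3, and 0.09, -0.07 and -0.02 in vehicle control replicates 1, 2 and 3. VNLG-152R replicate 1 was the lowest of its group for 40 of 73 members and replicate 2 the highest for 46, and vehicle control replicate 1 was the highest of its group for 52. Over the 61 members at 10 CPM or more, the median coefficient of variation was 11.8% in VNLG-152R libraries and 6.22% in vehicle controls, beside 7.76% and 6.04% over all 9311 genes at that level. Leaving out VNLG-152R replicate 2 gave a member median of -0.28 and 4 members called lower, beside 0.820% of all genes. Leaving out vehicle control replicate 1 gave -0.16 and none called lower, beside 0.595% of all genes. In that fit 16 members reached an unadjusted p under 0.05 in edgeR, and the share of all genes at that cut was not counted. VNLG-152R replicate 2 also held the most read pairs outside annotated genes (5.05%), and the part of those pairs in its levels was not tested.

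**Figure D4:**
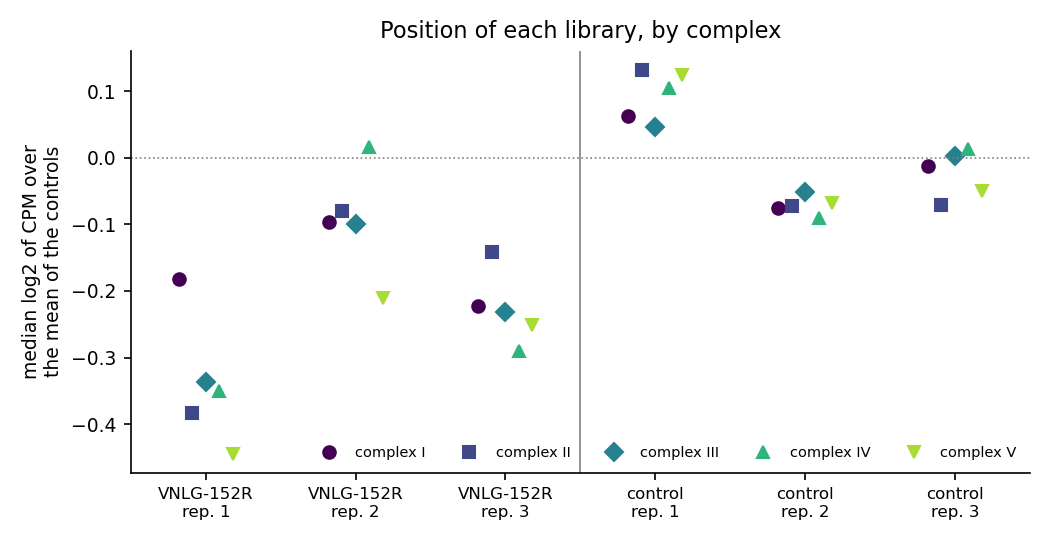
Median log2 of CPM over the mean of the vehicle controls, over the tested subunits of each complex (marker shapes), in each of the 3 VNLG-152R libraries on the left and the 3 vehicle control libraries on the right. VNLG-152R replicate 1 lies lowest for complexes II, III, IV and V, and vehicle control replicate 1 lies highest for all 5 complexes.

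Subunit transcripts are short, with a median of 750 bases over the tested members against 2207 over the tested genes with a known length, and fold changes ran with length. Across 16708 genes, which are not independent replicates, Spearman's rho between the log2 fold change and transcript length was 0.21. When each library was corrected by a curve on transcript length, the member median was -0.16, with 67 of 73 estimates below 0. In edgeR 0 members were called under this correction, beside 1.36% of all tested genes called lower. At an unadjusted p under 0.05 in edgeR 21 members were lower, and the share of all genes at that cut was not counted for this fit. ATP5MC1 and ATP5F1E then had adjusted p values of 0.066 and 0.056 in edgeR. The medians by complex under this correction were -0.13, -0.15, -0.18, -0.17 and -0.25 for complexes I to V. The correlation of a library's deviation with length was 0.27, 0.04 and 0.27 in VNLG-152R replicates 1, 2 and 3, and -0.13, 0.24 and -0.06 in the vehicle controls.

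Ribosomal protein genes had medians near that of the subunits. The 74 tested mitochondrial ribosomal protein genes had a median log2 fold change of -0.19, with 70 estimates below 0 and 3 called lower. The 81 tested cytosolic ribosomal protein genes had a median of -0.22, with 77 estimates below 0 and 3 called lower. The subunit genes had a median of -0.23, with 70 of 73 below 0 and 2 called lower. Over all tested genes edgeR called 1.43% lower. The counts of calls varied more between lists in other fits. DESeq2 without the expression filter called 8 of 73 mitochondrial and 18 of 80 cytosolic ribosomal genes with an adjusted p lower. It called 9 of 73 subunits lower, and 3.84% of all genes with an adjusted p. With the transcript length offset edgeR called 3, 1 and 0 lower in the same order, beside 1.36% of all tested genes. Of 49 tested assembly factors, which build the complexes without staying in them, 36 had estimates below 0, with a median of -0.15. In edgeR 2 were called lower and none higher, beside 1.43% and 3.76% of all tested genes. An unadjusted p under 0.05 in edgeR was reached by 9 lower and 0 higher, beside 9.76% and 12.8%. DESeq2 called 4 lower and 0 higher, beside 3.84% and 6.49% of all genes with an adjusted p. The counts in limma-voom were 1 and 0, beside 1.35% and 3.49%. COX20, a chaperone for the mitochondrially encoded COX2 subunit, fell to 21.8, 25.9 and 27.2 CPM in VNLG-152R libraries, against 38.4, 32.4 and 34.0 CPM in vehicle controls (log2 fold change -0.49, edgeR adjusted p = 0.020). COX17, the copper carrier for complex IV, fell to 11.8, 11.5 and 12.9 CPM with VNLG-152R, against 17.1, 14.8 and 14.9 CPM in vehicle controls (log2 fold change -0.37, edgeR adjusted p = 0.049). Neither gene's groups overlapped, and COX17 lost its call when any single library was left out, as did COX20 without vehicle control replicate 1 or 3 (edgeR adjusted p = 0.071 and 0.070). UQCC3, an assembly factor of complex III, had 23.5, 24.4 and 22.8 CPM with VNLG-152R, against 34.9, 26.8 and 27.7 CPM in vehicle controls (log2 fold change -0.34, edgeR adjusted p = 0.082). The assembly factors with the smallest p among higher estimates, SDHAF4, ECSIT and UQCC2, had log2 fold changes of 0.24, 0.08 and 0.14 (edgeR adjusted p = 0.47, 0.62 and 0.72).

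The mRNAs encoded in mitochondrial DNA went the other way in their estimates. All 13 had a log2 fold change above 0, with a median of 0.36. In edgeR 1 was called higher, beside 3.76% of all tested genes, and 7 were higher at an unadjusted p under 0.05, beside 12.8%. DESeq2 called 3 higher, beside 6.49% of all genes with an adjusted p, and limma-voom 1, beside 3.49%. With the transcript length offset edgeR called 3 higher, where it called 738 of all 17084 genes, 233 of them lower. Without the expression filter edgeR called 8 higher, where it called 1539 of all 32260 genes, 483 of them lower. MT-ND6, a complex I subunit and the one mRNA made from the light strand, rose to 221, 320.2 and 115 CPM in VNLG-152R libraries, against 84.7, 68.0 and 126 CPM in vehicle controls (log2 fold change 1.24, SE 0.29, edgeR adjusted p = 0.033). Its groups overlapped, since VNLG-152R replicate 3 lay below vehicle control replicate 3, and the edgeR adjusted p was 0.083 without VNLG-152R replicate 2 (log2 fold change 0.86), 0.10 without vehicle control replicate 1 and 0.077 without vehicle control replicate 2. In DESeq2 its adjusted p was 0.071. MT-ND5 had 1493, 1454 and 1073 CPM with VNLG-152R, against 784, 728 and 1147 CPM in vehicle controls (log2 fold change 0.60, edgeR adjusted p = 0.059, or 0.013 without vehicle control replicate 3). MT-ND4 had 2005, 2027 and 1614 CPM in VNLG-152R libraries, against 1486, 983 and 1524 CPM in vehicle controls (log2 fold change 0.50, edgeR adjusted p = 0.079). All 3 are subunits of complex I, and vehicle control replicate 3 was the highest control for each. No test of the difference between mitochondrially and nuclear-encoded mRNAs was made.

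**Figure D5:**
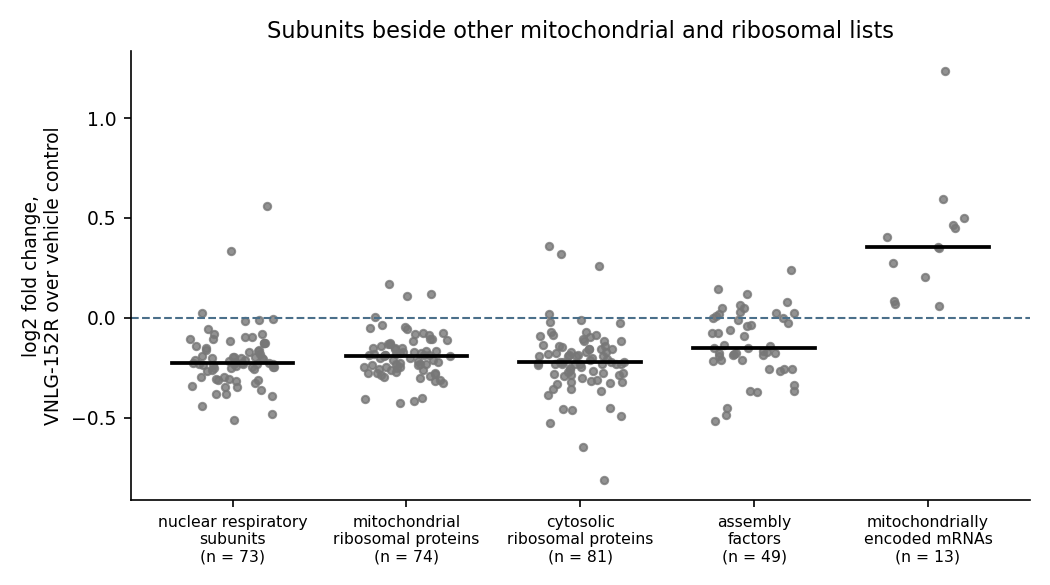
Tested genes (grey points) by their log2 fold change in VNLG-152R over vehicle control libraries, for the nuclear respiratory subunits, mitochondrial ribosomal proteins, cytosolic ribosomal proteins, assembly factors and mitochondrially encoded mRNAs, with the median of each list as a black bar and that of all tested genes as a dashed line. The first 4 lists have medians between -0.23 and -0.15, and the mitochondrially encoded mRNAs have a median of 0.36.

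Among 12 tested regulators of respiratory genes, 9 had estimates below 0. In edgeR 1 was called higher, beside 3.76% of all tested genes, and none lower, beside 1.43%. At an unadjusted p under 0.05 in edgeR, 2 were lower, beside 9.76%, and 1 was higher, beside 12.8%. DESeq2 and limma-voom called none lower, beside 3.84% and 1.35%. PPARGC1A, the coactivator PGC-1α that drives mitochondrial biogenesis, rose to 5.96, 5.65 and 6.94 CPM in VNLG-152R libraries, against 3.17, 4.17 and 4.26 CPM in vehicle controls (log2 fold change 0.68, SE 0.14, edgeR adjusted p = 0.020). Its groups did not overlap, and it lost the call without VNLG-152R replicate 3 (adjusted p = 0.083 in edgeR) or vehicle control replicate 1 (adjusted p = 0.058 in edgeR). The related PPARGC1B had 10.2, 8.97 and 10.02 CPM with VNLG-152R, against 7.22, 9.10 and 8.88 CPM in vehicle controls (log2 fold change 0.21, edgeR adjusted p = 0.30). TFB2M, a transcription factor of mitochondrial DNA, had 14.7, 17.0 and 17.3 CPM in VNLG-152R libraries, against 19.9, 18.5 and 18.5 CPM in vehicle controls (log2 fold change -0.21, edgeR adjusted p = 0.20). GABPB1 and GABPA, the subunits of the ETS factor GABP, had log2 fold changes of -0.20 and 0.10 (edgeR adjusted p = 0.21 and 0.58). TFAM, which packages and transcribes mitochondrial DNA, had 66.0, 79.5 and 83.3 CPM with VNLG-152R, against 99.8, 80.9 and 79.5 CPM in vehicle controls, with overlapping groups (log2 fold change -0.19, edgeR adjusted p = 0.35).

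Of the 12 genes for cytochrome c and for tissue or paralogous forms of the subunits, 5 were tested. None passed in edgeR (2 lower at an unadjusted p under 0.05, beside 9.76% of all tested genes), DESeq2 or limma-voom. CYC1, the cytochrome c1 of complex III, which the symbol rule leaves out, had 202, 246 and 185 CPM in VNLG-152R libraries, against 256, 228 and 248 CPM in vehicle controls (log2 fold change -0.21, edgeR adjusted p = 0.27). COX7A2L, a factor for supercomplexes of III and IV, had a log2 fold change of 0.02 (edgeR adjusted p = 0.94). NDUFA4L2, a form of NDUFA4 known from hypoxic cells, had 5 to 7 counts per library with VNLG-152R and 9 to 12 in vehicle controls (log2 fold change -1.02, SE 0.42, edgeR adjusted p = 0.17).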

How the data were processed

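RNA from 3 VNLG-152R-treated and 3 vehicle control samples of MDA-MB-231 cells was measured by the authors as polyA libraries, and the authors deposited raw read counts per Ensembl gene, 1 table per sample. The processing notes name HISAT, HTSeq, DESeq and the build GRCh38, without roles, while annotation release and strand setting were not given in the sources used here. The special HTSeq classes were left out of library totals. Of 61552 identifiers, 61399 matched a gene record, and coordinates, lengths and exon overlaps were taken from GENCODE release 29.

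Groups were compared over all 6 libraries by quasi-likelihood tests (edgeR 4.0.16 in R 4.3.3) after filterByExpr and TMM normalisation, with Benjamini-Hochberg adjustment over 17084 genes and a threshold of 0.05. The biological coefficient of variation was 0.105. CPM values are TMM-normalised. A count of 0 in a library allows up to 3 counts, or 0.0362 to 0.0443 CPM in VNLG-152R libraries and 0.0440 to 0.0498 CPM in vehicle controls. That limit covers counting error only. An exact permutation test of 3 against 3 libraries cannot give a p under 0.10, so none was made. The script was tested on simulated data.

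Alternatives were other size factors, other filters, DESeq2 1.42.0 (without the expression filter, and with it as an alternative added after the data were seen), limma-voom (limma 3.58.1), a replicate block, a transcript length offset, thinned counts and leaving out each library. Members and lists were chosen with earlier results of these data known. The text names, per complex and direction, the 3 members of smallest p at most, a set list of 10 catalytic or core subunits (COX4I1, COX5A and UQCRC1 among them), all that passed, and up to 3 genes per direction from each other list. ATP5MC2, ATP5MC3, ATP5MF, ATP5PB, ATP5MK, ATP5PO, ATP5F1D, COX7B, ATP5PF, NDUFB4, NDUFS8, NDUFA5 and NDUFB8 were named outside that rule, after their values were seen. Promoter sequences are RefSeq's and matched 64 of 78 members.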

Additional observations from a re-analysis of the deposited data

Results flagged for a closer look

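Read pairs in no annotated gene were outside every comparison above. They averaged 3.97% in VNLG-152R libraries and 2.95% in vehicle control libraries, and this share was singled out because every VNLG-152R library, at 3.52%, 5.05% and 3.36%, lay above every vehicle control library, at 3.17%, 2.63% and 3.05%. Where these pairs fall was not analysed here.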

How the results depend on the processing

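The member median stayed below 0 in all 17 other fits, between -0.28 without VNLG-152R replicate 2 and -0.16 without vehicle control replicate 1, and no member was called higher in any of them. The number called lower, 2 as reported (beside 1.43% of all genes), was 1 with library size only (1.28%) and 10 with no expression filter (1.50%). It was 9 with DESeq2, which ran without that filter (3.84%), and 8 with DESeq2 and the filter, added after the data were seen (3.67%). At an adjusted p under 0.1 it was 7, and the share of all genes at that cut was not counted. With the transcript length offset it was 0 (1.36%). It was 2 with RLE size factors, limma-voom, a minimum mean of 1 CPM, thinned counts and the members at 10 CPM or more. Leaving out 1 library at a time gave 0 to 4, with 0.251% to 1.98% of all genes called lower and 63 to 71 of the 73 members at a lower estimate, the fewest without VNLG-152R replicate 1. The cause of these differences was not tested. With a replicate block the count was 0 (0.509% of all genes), with the transcript length offset added also 0, and the calls over all genes dropped to 397, against 887 without it. Deviations of same-numbered libraries had correlations of -0.19, -0.17 and -0.11, and no library correlated best with its own number. Each group was centred on its own mean, which ties these correlations to each other. They therefore cannot show whether same-numbered libraries were handled together, and the labels do not say. The numbers were not taken as pairs in the main comparison.

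Among the genes named by the rule given under processing, signs turned for 6, none of which had passed, and of the genes named outside it only COX7B was followed through these fits. COX4I1 was 0.050 with the length offset and 0.045 with the replicate block and length offset together, and ran between -0.17 and 0.069 with 1 library left out. The corresponding ranges were -0.12 to 0.10 for NDUFA8, -0.37 to 0.029 for SDHD, -0.043 to 0.40 for SDHAF4, -0.24 to 0.32 for UQCC2 and -0.12 to 0.16 for COX7A2L. NDUFA3, NDUFA6, NDUFA7, NDUFS3 and ATP5MGL had too few counts for a test at this depth.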
